A study of Ovis aries with 18 samples.

Results

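The comparison of monophosphoryl lipid A (MPLA) with phosphate-buffered saline (PBS) in sheep whole blood rested on 12 of the 18 arrays of the series. They came from 6 healthy adult female sheep, named 71Y, 51Y, 20, 170, 80 and 65Y in the sample titles. Heparinised venous blood of each animal was divided and incubated for 90 minutes with PBS, with 10 µg of MPLA or with 1 µg of lipopolysaccharide (LPS), amounts that the study's methods state per mL. The members were all arrays titled as PBS or MPLA treated, and the 2 arrays of an animal were paired by the name in the title. Blood of each animal served as its own control. Only transcripts present after a single short incubation outside the body were measured.

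MPLA is a detoxified form of lipid A, the membrane anchor of LPS from Gram-negative bacteria. Both molecules bind the receptor complex of TLR4 and MD-2, to which CD14 delivers them on monocytes and other myeloid cells. The receptor signals through the adaptor MYD88 to NF-kB and MAP kinases and through the adaptor TRIF to interferon regulatory factors. Cytokines, chemokines and feedback inhibitors are among the first transcripts to follow in blood leukocytes.

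Each array gave a signal for 15008 probes, and 3996 of them were tested because they were seen well above background, by the scanner's own mark, on all 6 PBS arrays or all 6 MPLA arrays. Level here means the processed signal of a probe divided by the 75th percentile of its own array, so that 1 is the level of that percentile. Levels were compared for the same probe only. The 75th percentile itself lay between 24.8 and 124.2 intensity units on the PBS arrays and between 42.0 and 99.3 on the MPLA arrays. Between 23.9% and 45.1% of the probes were well above background on a PBS array, and between 29.2% and 38.9% on an MPLA array. HBB (beta globin of red cells), CD3D and CD3E (parts of the T cell receptor complex), LYZ (lysozyme) and CD14 were well above background on all 12 arrays. Only 1 of 12 B cell markers and 3 of 21 neutrophil markers were named on the array, and none could be tested. CR2, CATHL1B and CATHL3 were well above background on at most 4 PBS and 5 MPLA arrays, and LTF on 2 and 1. The platelet marker SELP was above it on none of the 12. A gene name was found for 436 of the tested probes (10.9%), which stood for 370 genes.

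Transcripts of several cytokines and of the chemokine CXCL1 rose with MPLA in the blood of all 6 sheep. Those of IL1A, IL1B, IL6, TNF, IL10, CSF2, CXCL1 and, by 1 of its 2 probes, INHBA were called. So were those of the enzymes SOD2 and PTGS2 and the receptor CLEC4E. PPARG, a nuclear receptor that restrains inflammatory genes in macrophages, was the only named gene called lower with all 6 animals. In all, limma called 42 of the 3996 probes at a Benjamini-Hochberg adjusted p under 0.05, which is 1.05% of those tested. Of these, 32 probes (0.801% of those tested) were higher and 10 (0.25%) were lower with MPLA. Every called probe moved the same way in 6 of 6 animals, against 153 of all probes tested (3.83%). Levels of the 6 MPLA and 6 PBS arrays did not overlap for 30 of the 42, and 30 probes (0.751%) showed such a separation among all those tested. Leaving out the 2 arrays of animal 20 brought the count to 312, with 138 higher and 174 lower, and these included all 42. Without any other animal the count was 35 to 40. An unadjusted p under 0.05 was reached by 286 probes.

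Of the 32 higher probes, 18 were well above background on all 6 PBS arrays, and the rest entered the test only through the MPLA arrays, where they were high. All 10 lower probes were seen on all 12 arrays, so the sizes of rises and falls are not compared. The called falls lay between -1.08 and -2.11 on the log2 scale. A gene name was at hand for 22 of the 42 probes, which stood for 17 genes, 16 of them higher. Every tested probe was called for each of the 5 genes that had more than 1, namely IL1A, IL10, CLEC4E, SOD2 and CXCL1. In whole blood, a change in the number of cells of a type and a change in RNA per cell cannot be told apart.

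**Figure D1:**
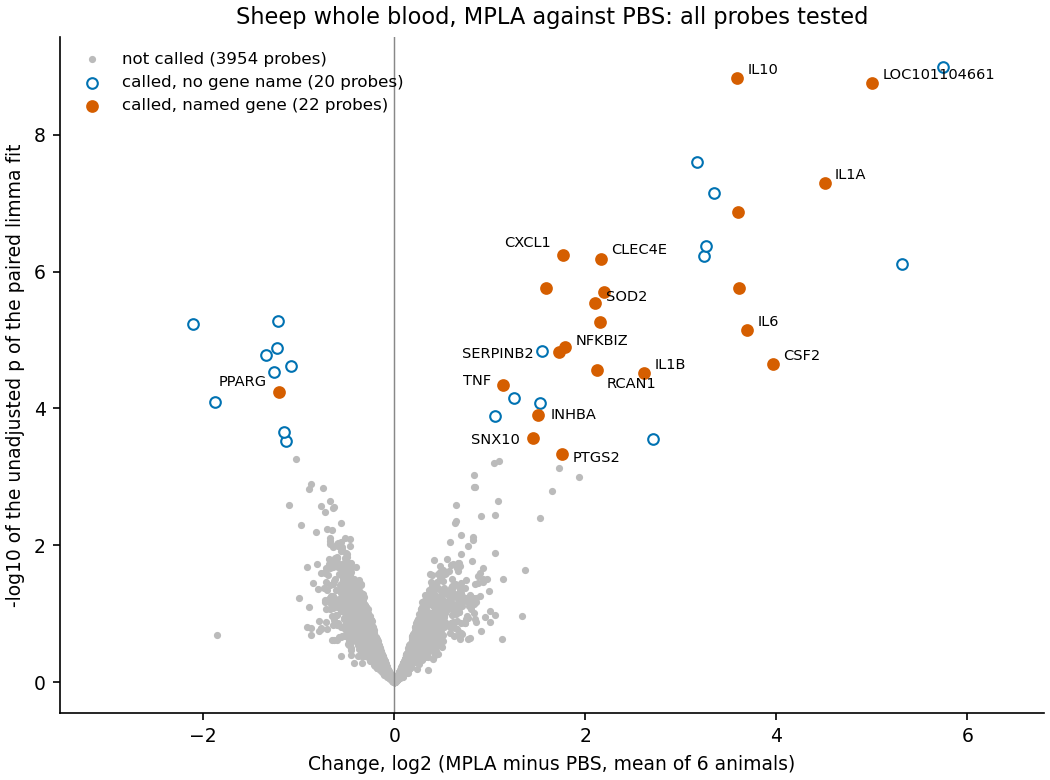
Each point is a tested probe, placed by its mean log2 change with MPLA over 6 animals (horizontal axis) and the -log10 of its unadjusted p in the paired limma fit (vertical axis). Orange points are the 22 called probes with a gene name and open blue circles the 20 called probes without a name, and 32 of these 42 lie to the right of 0. Fitted changes of IL1A, IL6, CSF2 and A_70_P019681 start from PBS signals that were close to background.

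Among cytokines, 20 of the genes listed were named on the array, 9 could be tested and 7 were called, all higher. IL1A, IL6, CSF2 and INHBA entered the test only through the MPLA arrays, where they were high, so the count for this list is in part set by the filter. The median change of all tested probes was -0.09 on the log2 scale. IL1A, an interleukin that acts on the same receptor as IL1B, was above background on no PBS array and on all 6 MPLA arrays. The level of its brighter probe was 1.96 at the lowest, 3.53 at the median and 6.30 at the highest with MPLA. That probe was at least 7.89-fold higher than with PBS (limma adjusted p 4.1e-05), and the dimmer probe was at least 3.51-fold higher (limma adjusted p 0.00049). The call of the dimmer probe was lost when low signals were raised to the detection floor of their array.

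IL1B, the secreted interleukin 1 that drives fever and leukocyte recruitment, was already well above background on all PBS arrays. Its level ran from 2.08 through a median of 6.20 to 27.4 with PBS, and from 14.2 through 42.3 to 119.9 with MPLA. The ranges overlapped because animal 71Y started at 27.4 with PBS, above the MPLA level of animals 20 and 170. Within animals the change was 2.62 ± 0.37 on the log2 scale (SE, n = 6 animals, limma adjusted p 0.0041), from 0.58 in animal 20 to 3.80 in animal 51Y. The call was lost when the pairing by animal was left out and when slide took its place.

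TNF, the early cytokine of the acute response, was close in level between animals before stimulation. It lay between 29.0 and 38.4 with PBS (median 30.8) and between 54.97 and 100.2 with MPLA (median 68.8). No MPLA array was as low as any PBS array. The rise was 2.20-fold, or 1.14 ± 0.17 on the log2 scale (SE, n = 6 animals, limma adjusted p 0.0059).

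IL6, which drives the acute phase response of the liver, was seen on no PBS array, and with MPLA its level was 0.79 at the lowest, 1.37 at the median and 3.0 at the highest. This was at least 3.17-fold higher (limma adjusted p 0.0014). CSF2, the growth factor GM-CSF of granulocytes and macrophages, was likewise seen on no PBS array and on all 6 MPLA arrays. Its MPLA level ran from 0.72 to 8.20, and it was at least 3.73-fold higher (limma adjusted p 0.0034). The highest MPLA level of both genes was that of animal 20. Both calls were lost when low signals were raised to the detection floor of their array and with another background correction (normexp).

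IL10, which restrains macrophages and dampens the production of the cytokines above, was higher at the same single time point. Its brighter probe ran from 1.75 to 3.77 with PBS (median 2.69) and from 18.1 to 115.5 with MPLA (median 29.2), with no overlap. The changes of its 2 probes were 3.60 ± 0.28 and 3.59 ± 0.17 on the log2 scale (SE, n = 6 animals, limma adjusted p 7.7e-05 and 2.4e-06). Each kept its call under all 22 alternatives run for a probe. Both probes were well above background on all 12 arrays. INHBA, the beta A subunit of activins and inhibins, was dim, and its tested probe was seen on 2 of 6 PBS arrays and on all MPLA arrays. That probe changed by 1.503 ± 0.25 (SE, n = 6 animals, limma adjusted p 0.014), but by 0.11 in animal 20. Its call was ended by 12 of 22 alternatives, including the removal of any animal but 20. The second probe, A_70_P051056, was left out by the filter, at 2 PBS and 4 MPLA arrays. It was higher in 5 of 6 animals, at -0.47 in animal 20. When the filter asked for 4 of 6 arrays it was not called (limma adjusted p 0.17).

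The other cytokines tested, IL18 and MIF, were not called. IL18, which is made as a precursor and activated by caspase 1, had changes of -0.48 and -0.44 in its 2 probes (limma adjusted p 0.66 for both), with animal 20 above 0 and the other 5 animals below 0 in each. Without animal 20, the first of these probes was called lower, at -0.80 (limma adjusted p 0.023). It entered the test only through the PBS arrays, being well above background on 5 MPLA arrays. MIF, which leukocytes store before stimulation, had a change of 0.21 (limma adjusted p 0.66). Of the 11 cytokines that were named on the array but too dim to test, 6 stayed at background on all 12 arrays, among them IL12B, IL4 and IL13. IFNG was well above background on at most 3 PBS and 4 MPLA arrays.

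**Figure D2:**
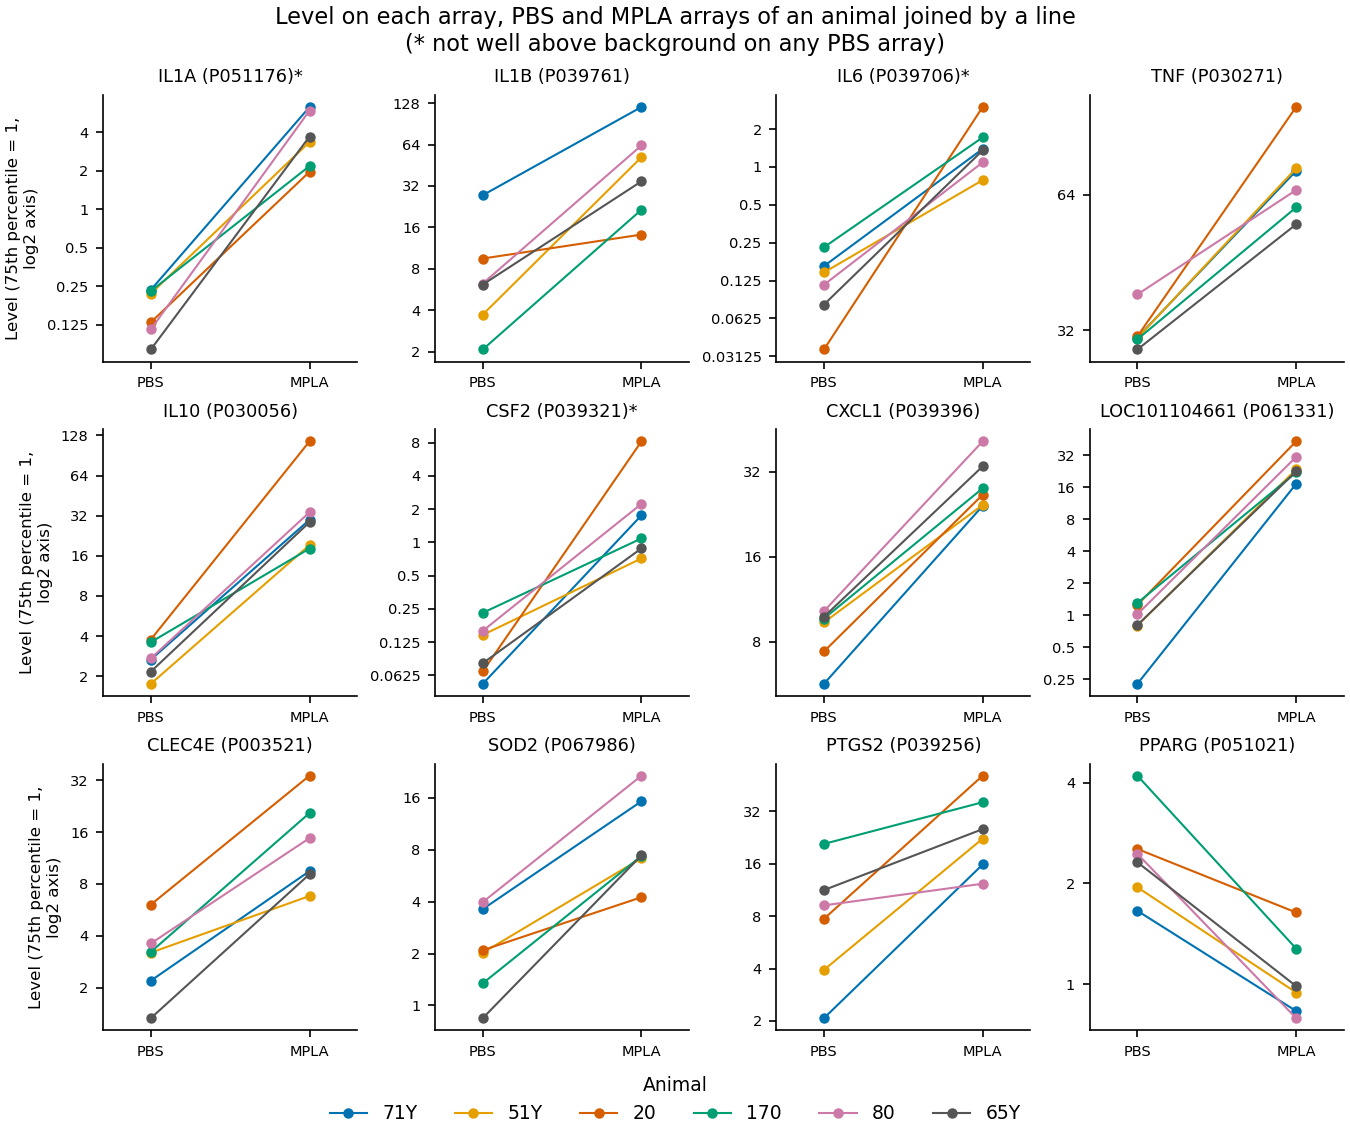
Each panel shows the level of a called probe on each of the 12 arrays (log2 axis, 75th percentile of an array = 1), with the PBS and MPLA arrays of an animal joined by a line and coloured by animal. All lines rise except those of PPARG, and the lines of IL1B and PTGS2 start far apart while those of TNF and CXCL1 start close together.

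Chemokines had 3 tested genes, and 1 of them, CXCL1, was called. CXCL1 attracts neutrophils through CXCR2. Its brighter probe ran from 5.69 to 10.3 with PBS (median 9.53) and from 24.3 to 41.0 with MPLA (median 27.3), and the treatments did not overlap. The changes of its 2 probes were 1.77 ± 0.16 and 1.59 ± 0.16 on the log2 scale (SE, n = 6 animals, limma adjusted p 0.00023 and 0.00049). The animals were close together, from 1.38 to 2.09 for the brighter probe.

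LOC101104661 was seen on 5 of 6 PBS arrays and on all MPLA arrays. RefSeq gives this protein-coding sheep gene no symbol, and in the sheep assembly ARS-UI_Ramb_v3.0 it lies next to CXCL1, with 2 long non-coding RNA genes between them, in a neighbourhood that also holds PPBP, another CXC chemokine gene. Its level ran from 0.23 to 1.31 with PBS (median 0.91) and from 17.2 to 43.2 with MPLA (median 23.0). The lowest MPLA level was thus far above the highest PBS level. The change was 5.001 ± 0.25 on the log2 scale, or 32.0-fold (SE, n = 6 animals, limma adjusted p 2.4e-06). The probe kept its call under all 22 alternatives run for it, with the lowest change, 3.71, under normexp. Whether its transcript is that of a chemokine is not given by the tables used here.

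CXCL8, the main neutrophil chemokine in many mammals, was bright with both treatments and varied between animals. The level of its brighter probe ran from 116.2 through a median of 433.9 to 1194 with PBS, and from 410.0 through 649.6 to 844.9 with MPLA. Its 2 probes had changes of 0.55 and 0.45 (limma adjusted p 0.66 for both) and were higher in 4 of 6 animals. In animal 71Y, where the PBS level was lowest, the change was 1.84. XCL1, a chemokine of T and NK cells, had changes of 0.09 and 0.19 (limma adjusted p 0.79 and 0.66). CXCL16, a chemokine also held on the membrane of macrophages, was left out by the filter, as it was well above background on 1 PBS and 4 MPLA arrays. It was higher in 6 of 6 animals, by 0.39 to 4.21, and was not called when the filter asked for 4 of 6 arrays (limma adjusted p 0.17).

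Few genes of the pathway itself could be tested, 1 on the NF-kB list and 3 on the TLR4 list, and 1 of them was called. NFKBIZ, an inducible nuclear IkB protein that the transcription of IL6 needs in macrophages, was the only tested gene of the NF-kB list. Its level ran from 1.31 through 2.72 to 4.32 with PBS and from 5.204 through 9.64 to 19.6 with MPLA, without overlap. The change was 1.79 ± 0.23 on the log2 scale (SE, n = 6 animals, limma adjusted p 0.0024). NFKBIA, the inhibitor IkB alpha that NF-kB itself induces, was too dim for the filter, at 3 PBS and 5 MPLA arrays. It was higher in 5 of 6 animals, with a mean change of 1.33, and was not called when 4 of 6 arrays were asked for (limma adjusted p 0.20).

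CLEC4E, the receptor Mincle for mycobacterial glycolipids and products of dying cells, rose in both of its probes. The brighter probe ran from 2.09 through 3.58 to 7.44 with PBS and from 8.36 through 15.5 to 35.1 with MPLA. The changes were 2.16 ± 0.20 and 2.20 ± 0.23 (SE, n = 6 animals, limma adjusted p 0.00023 and 0.00053). TLR6, a partner of TLR2, was the other tested gene of its list and had changes of 0.28 and 0.30 (limma adjusted p 0.66 for both). PTX3, a secreted pattern recognition protein, had 2 probes that were well above background on no PBS array and on 5 and 3 MPLA arrays. The first was at least 1.37-fold higher, in 5 of 6 animals, and was not called with the filter of 4 of 6 arrays (limma adjusted p 0.31). The second was higher in 4 of 6 animals and had no lower bound above 1.

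The array named 6 receptor and signalling genes of TLR4, of which 3 could be tested and none was called. TLR4 was well above background on 1 PBS and 1 MPLA array, and MYD88 on none. CD14, the co-receptor, had changes of -0.43 and -0.48 in its 2 probes (limma adjusted p 0.66 and 0.62). PELI1, a ubiquitin ligase of the pathway, had a change of 0.27 (limma adjusted p 0.66).

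Among induced enzymes and their inhibitors, 3 of 7 tested genes were called, all higher. SOD2, the mitochondrial superoxide dismutase, ran from 0.84 through 2.06 to 3.97 with PBS and from 4.24 through 7.39 to 21.5 with MPLA in its brighter probe. The treatments did not overlap, and the change was 2.16 ± 0.25 (SE, n = 6 animals, limma adjusted p 0.0012). Its second probe changed by 2.10 ± 0.22 (SE, limma adjusted p 0.00073).

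SERPINB2, the plasminogen activator inhibitor 2 of monocytes, ran from 1.35 to 4.92 with PBS (median 2.33) and from 4.62 to 12.7 with MPLA (median 8.63). The ranges overlapped because animal 80 had the highest PBS level and animal 20 the lowest MPLA level. The change was 1.72 ± 0.22 (SE, n = 6 animals, limma adjusted p 0.0025).

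PTGS2, the inducible cyclooxygenase that makes prostaglandins, ran from 2.07 through 8.43 to 20.8 with PBS and from 12.3 through 23.7 to 51.3 with MPLA. It was higher in 6 of 6 animals, though by 0.41 in animal 80 and by 2.93 in animal 71Y. The change of 1.76 ± 0.34 passed narrowly (SE, n = 6 animals, limma adjusted p 0.044). It did not pass without animal 51Y, 65Y or 71Y (limma adjusted p 0.25, 0.077 and 0.15). In all, 8 of 22 alternatives ended the call, among them looser filters and the fit without pairing. KYNU, an enzyme of tryptophan breakdown, was not called (change 0.56, limma adjusted p 0.66), with 2.10 in animal 20 and -0.11 to 0.66 in the other animals.

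RCAN1 and SNX10 were called and stood on none of the lists. RCAN1, an inhibitor of calcineurin, ran from 2.03 through 3.81 to 8.497 with PBS and from 7.26 through 18.9 to 35.5 with MPLA. The ranges overlapped, and the change within animals was 2.12 ± 0.29 (SE, n = 6 animals, limma adjusted p 0.0039). SNX10, a sorting nexin of endosomes, was near the detection limit, at 4 of 6 PBS arrays. It changed by 1.45 ± 0.26 (SE, n = 6 animals, limma adjusted p 0.027) and 10 of 22 alternatives ended its call, including the removal of animal 170, 65Y or 80.

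Regulators of the early response had 6 tested genes, of which none was called. ETS2, a transcription factor downstream of MAP kinases, came nearest. It was higher in 6 of 6 animals by 0.10 to 2.04, with a mean change of 0.91 (limma adjusted p 0.24). A call was gained under 3 of 22 alternatives. BTG2 (0.39), ATF4 (0.40) and MYC (0.35 and 0.21) also missed the threshold (lowest limma adjusted p 0.66). FOS, the prototype of this class, was at background on all 12 arrays, and EGR1 was seen on at most 2 arrays of a treatment.

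PPARG was the only named gene called lower with all 6 animals. Its level ran from 1.66 through 2.38 to 4.20 with PBS and from 0.79 through 0.96 to 1.64 with MPLA, and the highest MPLA level was just below the lowest PBS level. The fall was 2.31-fold, at -1.21 ± 0.18 on the log2 scale (SE, n = 6 animals, limma adjusted p 0.0072). It was smallest in animal 20 (-0.63) and largest in animal 170 (-1.72). The call was lost under 4 of 22 alternatives, namely with no filter, without the pairing, with slide in its place and within slide 3. The other 3 tested genes of nuclear receptors and lipid handling were not called, among them PLIN2, which coats lipid droplets, with a change of 0.55 (limma adjusted p 0.66).

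The other 9 probes that fell had no gene name in the tables used here. A_70_P017136 fell the most, from levels of 5.70 to 28.8 with PBS to 2.25 to 4.18 with MPLA. Its change was -2.11 ± 0.24 (SE, n = 6 animals, limma adjusted p 0.0012), with no overlap. A_70_P056276 had a change of -1.88 ± 0.29 (SE, limma adjusted p 0.0094), which was -0.34 in animal 20 and at least as low as -1.42 in the others. Its call was lost under 5 of 22 alternatives, including the removal of animal 51Y. A_70_P031861 fell from 17.6 to 36.3 with PBS to 6.47 to 16.6 with MPLA, with a change of -1.34 ± 0.17 (SE, limma adjusted p 0.0027). A_70_P035666 (-1.26) and A_70_P026731 (-1.23) followed. All of these were well above background on all 12 arrays.

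The steadiest change of any called probe was also a fall. A_70_P059661 changed by -1.10 to -1.35 in the 6 animals, a spread of 0.080 (SD) around a mean of -1.22. The SD over animals of the 42 called probes had a median of 0.65 and reached 1.79 in CSF2. A_70_P059662, designed on the same array record, fell by 1.08 on the log2 scale with an SD of 0.17.

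Unnamed probes rose as well. A_70_P003541, seen on 5 of 6 PBS arrays, ran from 0.23 to 2.90 with PBS and from 21.4 to 103.5 with MPLA. Its change of 5.74 ± 0.27 (SE, n = 6 animals, limma adjusted p 2.4e-06) was a 53.5-fold rise, and the log2 change was 4.19 with normexp. A_70_P019681 was seen on no PBS array and was at least 8.61-fold higher (limma adjusted p 0.00026).

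A_70_P016701 was bright already with PBS, at 5.65 to 35.2, and reached 85.2 to 233.8 with MPLA. It rose 9.03-fold (log2 change 3.17 ± 0.20, SE, limma adjusted p 2.5e-05). A_70_P005636 (3.35), A_70_P058706 (3.26) and A_70_P012436 (3.24) were seen on 3, 2 and 2 of the PBS arrays, so the size of their rise rests on signals near background. With normexp the changes were 1.70, 1.26 and 1.25, and A_70_P012436 lost its call there, with floored values, without the pairing and with slide in its place. None of the 6 overlapped between treatments, and 0.751% of all tested probes showed no overlap. All but A_70_P016701 entered the test only through the MPLA arrays, and the 6 were picked for large rises. This separation was thus in part set by the filter and the choice.

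A_70_P021181 changed by 2.71 ± 0.50 (SE, limma adjusted p 0.028) and 11 of 22 alternatives ended its call, including the removal of animal 170, 51Y, 65Y or 80. A_70_P046591 changed by 1.55 ± 0.20 (SE, limma adjusted p 0.0025), with overlapping ranges, and lost its call under 4 of 22 alternatives. The tables used here pair none of these 8 probes with a gene.

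The remaining lists held no called gene with all 6 animals. Interferon response genes had 3 tested genes with a median change of 0.11, and the median was below 0 without animal 20 or 71Y, with array weights and within slide 2. Receptors of cytokines and chemokines had 4 tested genes, and their median of -0.22 was below 0 in 5 of 6 animals. That of all tested probes ran from -0.40 in animal 80 to 0.28 in animal 20. FAS, the death receptor, had changes of -0.29 and -0.40 (limma adjusted p 0.66 for both), and its second probe was called lower without animal 20, at -0.57 (limma adjusted p 0.048). Surface and adhesion molecules had 4 tested genes and a median of -0.06, which turned to 0.06 with normexp. Antigen presentation genes (3 tested, median -0.26) and apoptosis and stress genes (4 tested, median -0.02) also held none, and the latter median was 0.04 with cyclic loess and 0.05 with quantile normalization. The study listed 16 genes for sheep, of which 13 were tested here and 9 were called, all higher. It chose them on these same arrays, so this count is not independent evidence of a direction.

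Markers of cell types were followed because the makeup of blood can change in a tube. T cell markers CD3D and CD3E had a median change of 0.02 (0.22 with normexp), and their summed level lay between 219.9 and 471.8 with PBS and between 242.2 and 517.2 with MPLA. All 4 monocyte markers named on the array were tested and none was called. Their median was -0.38, below 0 in 6 of 6 animals and under every scaling tried, nearest to 0 at -0.16 with normexp. The median of all tested probes was also below 0 in animals 80 (-0.40), 51Y (-0.30), 65Y (-0.12) and 170 (-0.11). It was 0.06 in animal 71Y and 0.28 in animal 20. The changes of the 4 markers were -0.48 for CD14, -0.41 for CTSS, -0.35 for CD86 and -0.17 for LYZ, each by its brighter probe. LYZ was however at 0.0065 with normexp. The dimmer CD86 probe had a change of -0.06, with 3 animals higher and 3 lower. The summed level of the 4 lay between 52.6 and 109.7 with PBS and between 49.2 and 90.4 with MPLA. SERPINB2, IL1B and PPARG are expressed by monocytes, and the part of these markers in their changes was not tested. The red cell marker HBB changed by -0.23, with an SD of 0.73 over animals, and was above 0 with quantile normalization and with array weights. Housekeeping genes had 3 tested members between -0.18 and 0.22, with a median of -0.07 that was above 0 with cyclic loess and normexp, while ACTB stayed at background on all 12 arrays.

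**Figure D3:**
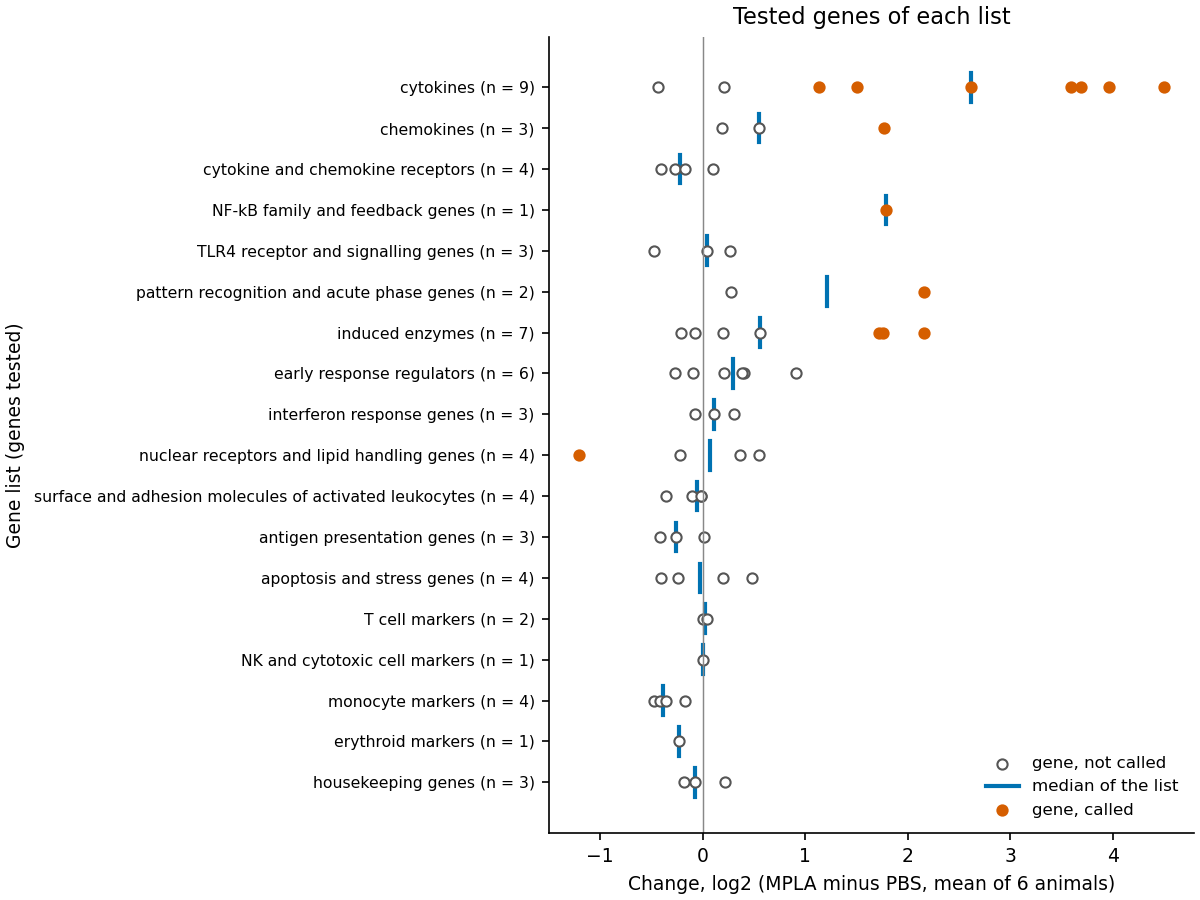
Each circle is a tested gene of a list, placed by its mean log2 change with MPLA over 6 animals, with called genes in orange and the list's median as a blue bar. Called genes are found among cytokines (7 of 9), chemokines (1 of 3), NF-kB genes (1 of 1), pattern recognition genes (1 of 2), induced enzymes (3 of 7) and nuclear receptors (1 of 4), the last with PPARG at -1.21.

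The paired fit favours probes that move alike in all animals, so the shared direction of the called probes was largely set by the call. The animals differed in the makeup of the response. Over the 27 probes that rose and were seen on at least 1 PBS array, the median change in an animal lay between 1.97 (51Y) and 2.49 (65Y). Over the 10 probes that fell, it lay between -0.84 (animal 20) and -1.66 (animal 170). Animal 20 had the highest MPLA level of the 6 animals for 16 of the 32 probes that rose, among them IL10, CSF2, IL6, CLEC4E, TNF and PTGS2. It had the lowest for 9 of them, among them IL1A, IL1B, SOD2 and SERPINB2. For IL10 its MPLA level was 115.5, against 18.1 to 34.0 in the other animals. For IL1B it was 14.2, against 21.5 to 119.9. Its PBS array had the largest share of probes above background, and the part of array quality in this pattern was not tested.

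**Figure D4:**
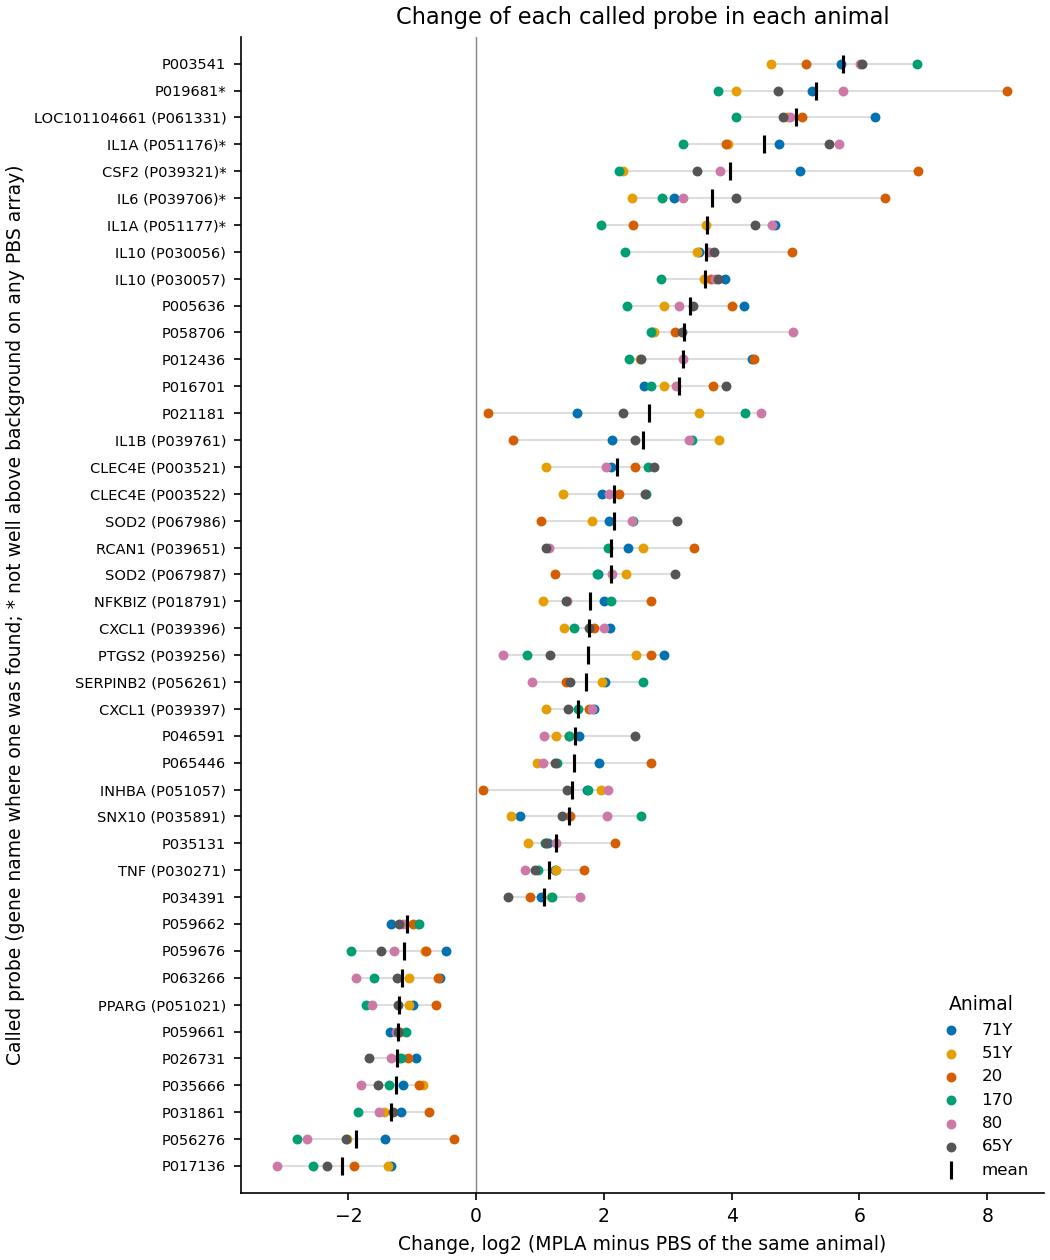
Each row is a called probe and each dot the log2 change of an animal (MPLA minus PBS), with a black bar at the mean of the 6 animals. All dots of a row lie on the same side of 0, the dots of A_70_P059661 lie closest together (-1.10 to -1.35), and animal 20 is the lowest for IL1B (0.58), INHBA (0.11) and A_70_P021181 (0.19). An asterisk marks probes seen above background on no PBS array.

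The same PBS arrays served as the control for LPS, at 1 µg against 10 µg of MPLA, so the agonist and its amount cannot be told apart and no test was made between them. LOC101104661 changed by 5.001 ± 0.70 with MPLA and by 5.55 ± 0.75 with LPS (SD over 6 animals, log2). IL10 changed by 3.60 ± 0.83 with MPLA and 3.08 ± 0.61 with LPS in its brighter probe. TNF changed by 1.14 ± 0.33 and 1.42 ± 0.35, and NFKBIZ by 1.79 ± 0.62 and 2.61 ± 0.50, in the same order. These genes were called against PBS with either agonist.

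Probes not called with LPS on the same 3996 probes were RCAN1, SNX10 and INHBA among the named genes. RCAN1 changed by 2.12 ± 0.89 with MPLA and 1.03 ± 0.60 with LPS (limma adjusted p 0.10 for LPS). INHBA changed by 1.503 ± 0.72 with MPLA and 0.36 ± 0.99 with LPS, and was seen on 6 MPLA and 3 LPS arrays. Among probes that fell, PPARG stood at -1.21 ± 0.41 with MPLA and -1.12 ± 0.31 with LPS. A_70_P031861 stood at -1.34 ± 0.37 with MPLA and 0.08 ± 0.37 with LPS. A_70_P059661 stood at -1.22 ± 0.08 and -0.34 ± 0.25. A call with MPLA that was missed with LPS does not show a difference between the agonists.

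**Figure D5:**
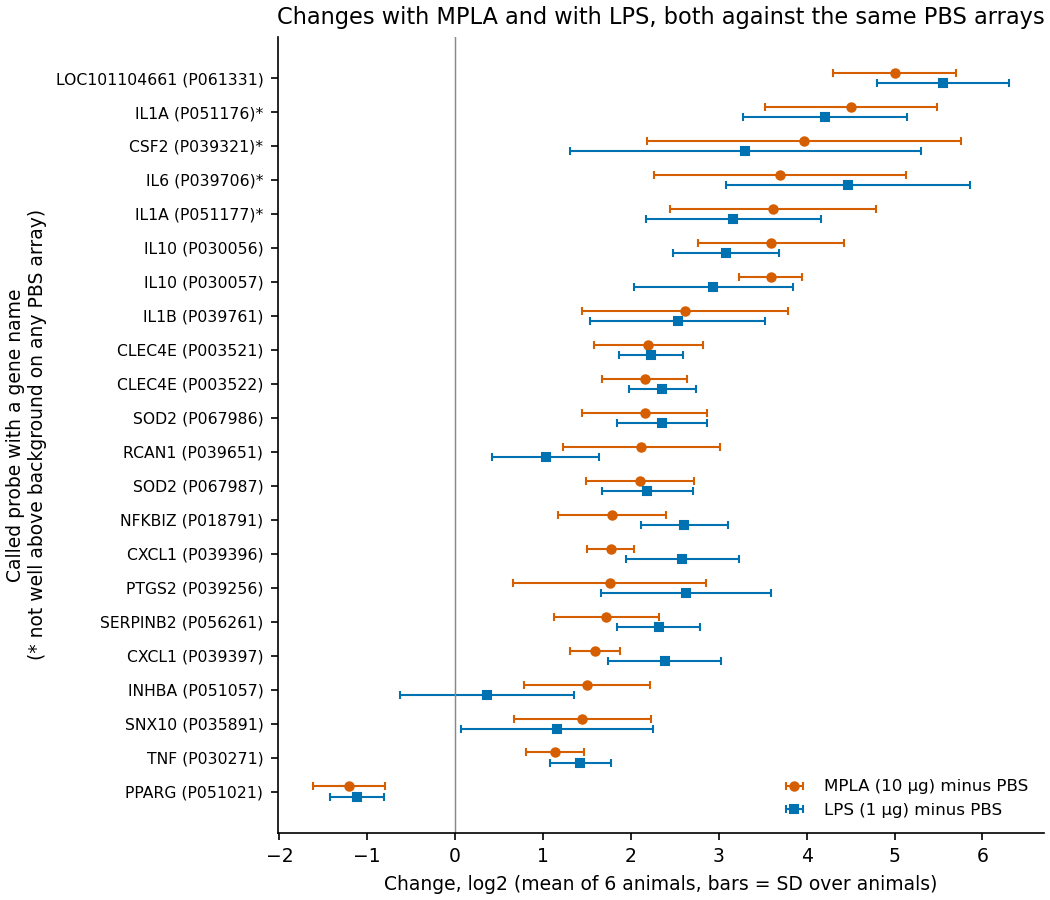
Mean log2 change (horizontal axis) of each called probe with a gene name for MPLA (orange circles) and LPS (blue squares), both against the PBS arrays of the same 6 animals, with bars of 1 SD over animals. The amounts were 10 µg of MPLA and 1 µg of LPS, and the values are set side by side without a test, with RCAN1 at 2.12 and 1.03 and PPARG at -1.21 and -1.12.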

How the data were processed

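Whole blood RNA was hybridised to 1-colour Agilent sheep arrays. The authors deposited scanner files made with Agilent Feature Extraction 11.5.1.1 (per the file headers), and the intensity used here is its background-subtracted processed signal. Their second deposited file holds ratios, each a signal over a number near its array's 75th percentile, and served only as an alternative. The study's methods give that percentile as the scale, and the divisor of each array was worked out here. Files give no read depth, so the number of arrays limits the precision.

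Spots of a probe were averaged, log2 was taken and the array's 75th percentile subtracted. No probe was saturated. Probes well above background on all 6 arrays of PBS or MPLA were fitted with limma 3.58.1 in R 4.3.3 (lmFit, eBayes, two-sided, animal as a fixed block), with Benjamini-Hochberg adjustment over 3996 probes. Animals are named in the titles, and deviations of the 2 arrays of an animal from their treatment means correlated at 0.25 to 0.88. A probe seen on no PBS array is given as "at least N-fold", the mean of the MPLA arrays against the mean of, per PBS array, the higher of its own signal and the dimmest signal marked as above background there. The fit was tested on simulated data.

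Names came from RefSeq (ARS-UI_Ramb_v3.0) for 1265 probes and from the study's table for 7, out of 15008. All called probes with a name were named, with the 8 largest rises and 5 largest falls among those without. From each list up to 4 genes that were not called were added, and A_70_P059662 and A_70_P059661 were chosen after their values were seen. In a list, a gene counts through its brightest tested probe, and interferon genes are not reported singly. Members, lists and named genes were chosen with earlier results of these data known. Alternatives covered normalization, background, the filter, floored values, flagged spots, pairing, slide, array weights, the variance prior, the methods' t-test and each animal left out. Normexp with an offset of 50 was run on the median spot signal. Arrays lay on 3 slides, and only in animal 170 were the PBS and MPLA arrays on different slides.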

Additional observations from a re-analysis of the deposited data

Results flagged for a closer look

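Dixon's test at 95% was applied to 74 sets of 6 values, and in 8 of them the highest or lowest value lay far from the other 5. About 1 in 20 such sets would show this by chance. In animal 20, 5 log2 changes stood apart. INHBA changed by 0.11 there and by 1.42 to 2.06 in the others. A_70_P035131 changed by 2.17, against 0.82 to 1.25. KYNU changed by 2.10, against -0.11 to 0.66. For FAS (A_70_P041482) the change was 0.42, against -0.82 to -0.38. For IL18 (A_70_P050911) it was 1.08, against -1.03 to -0.41.

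The second IL10 probe, A_70_P030057, changed by 2.89 in animal 170 and by 3.56 to 3.89 in the others. A_70_P058706 changed by 4.96 in animal 80 and by 2.74 to 3.22 in the others. In the authors' table, the divisor of the MPLA array of animal 80 was 0.793 of that array's 75th percentile, against 0.984 to 0.995 on the other MPLA arrays. The scanner values used here do not carry that divisor.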

How the results depend on the processing

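All 42 called probes kept their direction under all 22 alternatives run for each of them, and 9 also kept their call under every one. For MPLA against PBS, with each animal left out in turn, 34 kept their call, and the count of calls ranged from 35 to 312, the latter without animal 20. The count was 1664 with array weights (555 higher and 1109 lower), which gave the arrays of animal 65Y a weight of 9.44 and those of animal 20 a weight of 0.234. It was 24 with no filter on 15008 probes, 26 with slide as a block in place of animal, 608 within slide 2 (animals 80 and 65Y) and 19 within slide 3 (animals 51Y and 20), while slide 1 held 1 such pair and gave no fit. The methods' t-test gave 89 at p under 0.05 and a fold over 1.5, and 14 after Benjamini-Hochberg. With no replicate block, so that the animals were not paired, 29 were called, all among the 42. The remaining settings gave 32 to 46. The cause of these changes was not tested.

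Among the 26 named probes that were not called, a call was gained in 26 of 572 values. ETS2 gained 3 and each CXCL8 probe 2. The sign turned in 11 of the 572 values. With normexp, LYZ stood at 0.0083 and 0.0065 in its 2 probes and CD86 (A_70_P030342) at 0.036, which was also at 0.016 with cyclic loess and 0.024 within slide 3. LYZ A_70_P051226 was at 0.00201 within slide 2. Within slide 3, CXCL8 was at -0.19 and -0.032 in its 2 probes, PLIN2 at -0.13, FAS (A_70_P041481) at 0.16 and IL18 (A_70_P050911) at 0.074. Normexp moved the median of all tested probes from -0.09 to 0.02. The size of a rise depended on how low signals were treated in IL1A, IL6, CSF2, INHBA, SNX10, LOC101104661, A_70_P003541, A_70_P019681, A_70_P005636, A_70_P058706, A_70_P012436 and A_70_P021181.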

Other observations

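Without animal 20, 19 further named probes were called, among them those of IL18 and FAS given above. SRSF3, a splicing factor, was higher in 6 of 6 animals, with a log2 change of 1.94 over all animals (limma adjusted p 0.084) and 2.15 without animal 20 (limma adjusted p 0.023). RTP4, a chaperone of receptors, was also higher in 6 of 6 animals, at 0.83 over all and 0.86 without animal 20 (limma adjusted p 0.081 and 0.031). RBBP6, a ubiquitin ligase, stood at -0.67 over all animals and at -0.84 without animal 20 (limma adjusted p 0.41 and 0.029), and TMEM41B, a membrane protein of autophagy, at -0.67 and -0.84 (limma adjusted p 0.45 and 0.030). The others were higher, by 0.61 to 1.01, for OVAR, ATP5MC1, both probes of LOC443162, ATOX1, NOL12 and RHOA, and lower, at -0.60 to -0.80, for NDFIP2, PPP4R3A, HYLS1, IBTK, CLIC4 and CWC27 (limma adjusted p 0.027 to 0.050). These genes were chosen after their values were seen. SRSF3 was well above background on 4 and RTP4 on 3 of 6 PBS arrays. Both, with ATOX1 and RHOA, entered the test only through the MPLA arrays, where they were higher. IL18 (A_70_P050911) and HYLS1 entered it only through the PBS arrays, where they were higher.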
